A study of Mus musculus with 24 samples.

Results

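Early rest was compared with early activity in the ventral tegmental area (VTA) of the mouse, a midbrain region whose dopamine neurons project to reward-related forebrain areas. The 4 arrays labelled ZT4 and the 4 labelled ZT16 were set against each other, which makes 8 of the 24 arrays of the series. Zeitgeber time (ZT) counts hours from lights on under a 12-h light: 12-h dark cycle, so that ZT4 lies early in the light, when mice mostly rest, and ZT16 lies early in the dark, when they are awake and feeding. Both groups were wild-type C57BL/6N males of 10 to 12 weeks with free access to standard chow and water, and no mouse received a treatment. Each array held the total RNA of 1 mouse, taken with a 0.5 mm punch from a 0.5 mm brain slice, and the other 16 arrays came from ZT0, ZT8, ZT12 and ZT20, with 4 mice at each time. The study ran its food-conditioning sessions around these clock times, and the comparison asks how the transcriptome of the region differed between them. Each mouse gave 1 time point, so each value is a difference between animals and not a course within 1 animal.

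A mouse tissue keeps time through a loop in which CLOCK and ARNTL (BMAL1) activate the Period and Cryptochrome genes, whose proteins then repress that activation. REV-ERB proteins, encoded by Nr1d1 and Nr1d2, repress Arntl, while ROR proteins activate it, and the PAR bZIP factors Dbp, Hlf and Tef carry the rhythm to output genes. Nocturnal rodents also have a daily surge of corticosterone near lights off, which reaches the brain and acts on the glucocorticoid receptor, and glia, vessels and neurons all share a daily cycle of feeding, temperature and activity.

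The tissue carried the defining markers of dopamine neurons. Of the 9 dopamine neuron markers, 8 lay above the median level of all transcripts with a gene (6.76 on the log2 scale), among them Slc6a3, the dopamine reuptake transporter, at 8.48 over the 24 arrays, and Th, the rate-limiting enzyme of dopamine synthesis, at 7.76. En1, at 6.68, was the marker below it. Markers of GABA neurons (9 of 10), astrocytes (13 of 14), oligodendrocytes (14 of 14) and endothelium (9 of 11) were above that level too, so the punches were a mixture of cells, and in such bulk tissue fewer cells of a type and less RNA per cell cannot be told apart. No array among the 8 stood apart: Pearson correlations over the 23410 probe sets with a gene ran from 0.988 to 0.994 within ZT4, from 0.988 to 0.992 within ZT16 and from 0.986 to 0.993 between the groups. No 2 arrays of the series were identical. One array outside the comparison, ZT0 replicate 4, did stand apart, with a median correlation of 0.970 with the others, and it enters the test of ZT4 against ZT16 through the estimate of the spread that all 24 arrays share, and directly every ZT0 mean and ZT0 minus ZT12 difference given below.

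At the level of the whole transcriptome, no gene passed the test between early rest and early activity. With limma, 0 of 23410 transcripts with a gene (0%) had an adjusted p under 0.05, and the smallest adjusted p was 0.118, of Fabp7. At an unadjusted p under 0.05 there were 1227 transcripts (5.24%). Of these, 498 (2.13%) were higher at ZT4 and 729 (3.11%) were lower. The 4 arrays of one time did not overlap with the 4 of the other in 790 transcripts (3.37%), 373 (1.59%) higher at ZT4 and 417 (1.78%) lower. Of the 12146 probe sets with no gene, not described further, 1000 (8.23%) had an unadjusted p under 0.05 and 415 (3.42%) had arrays that did not overlap. Their p-values came from a separate limma fit over all 35556 probe sets. The differences were small, since 7 transcripts in all differed by more than 1.5-fold. The genes named below are therefore those of smallest p with a level above the median and arrays that did not overlap, 10 in each direction. None of the 20 passed in this main fit, which used all 24 arrays and no covariate. Fabp7 and Id2 passed in some alternative fits, given below.

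**Figure D1:**
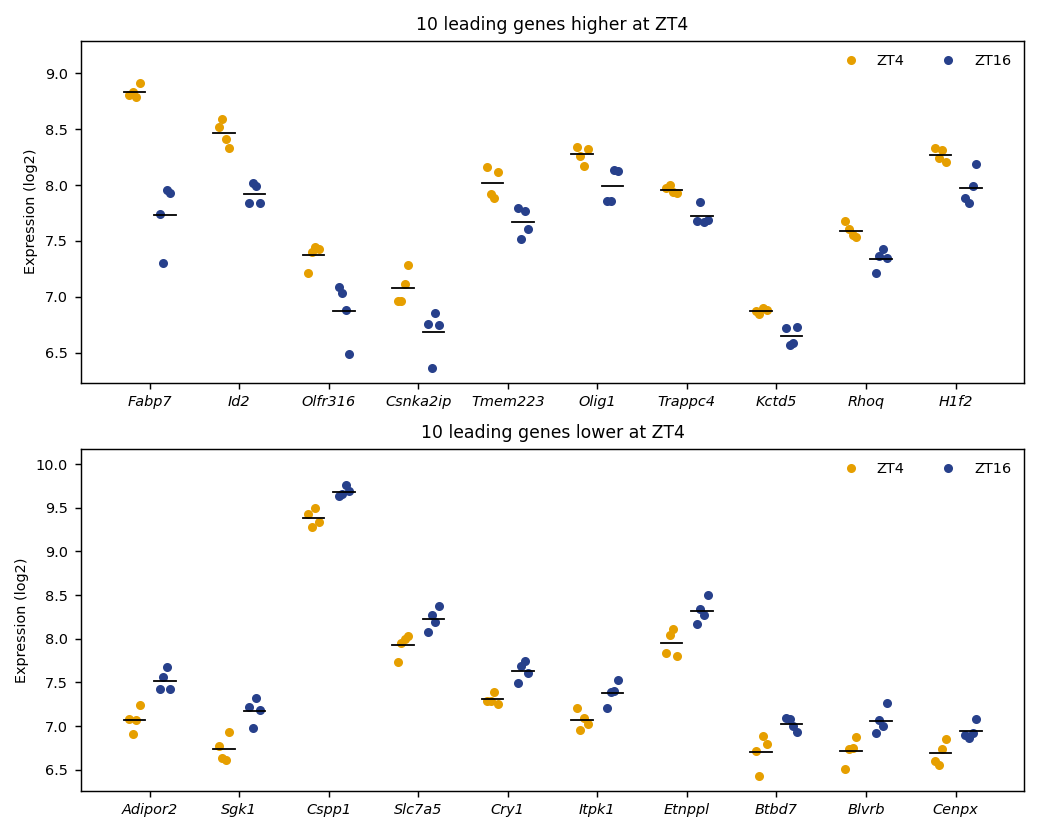
Expression (log2) of the 10 leading genes higher at ZT4 (top) and the 10 lower at ZT4 (bottom), with 1 point per array, ZT4 in orange and ZT16 in blue, and a bar at each mean of 4 arrays. The genes were chosen so that the groups do not overlap; Fabp7 has the widest gap, with ZT4 arrays from 8.79 to 8.91 and ZT16 arrays from 7.30 to 7.95.

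Fabp7 and Id2 lead the genes higher at ZT4, and Sgk1 and Cry1 stand for the glucocorticoid and clock genes among those lower at ZT4. Their promoters are shown as examples, because both pathways act through short DNA motifs. None of these 4 genes passed the test in the main fit of all 24 arrays. The sequences are the 250 bases before the transcription start in RefSeq on GRCm38.p6, 5′ to 3′ in the direction of the gene. Capitals mark matches to 3 motifs searched on both strands: the canonical E-box CACGTG, bound by CLOCK and ARNTL; a glucocorticoid response element core, ACANNNTGT; and the ROR half-site AGGTCA, also read by REV-ERB proteins, whose other strand is TGACCT. Fabp7 lies at chr10:57784673-57784922 on the plus strand, Id2 at chr12:25096093-25096342 on the minus strand, Sgk1 at chr10:21993640-21993889 on the plus strand and Cry1 at chr10:85185055-85185304 on the minus strand.
Fabp7: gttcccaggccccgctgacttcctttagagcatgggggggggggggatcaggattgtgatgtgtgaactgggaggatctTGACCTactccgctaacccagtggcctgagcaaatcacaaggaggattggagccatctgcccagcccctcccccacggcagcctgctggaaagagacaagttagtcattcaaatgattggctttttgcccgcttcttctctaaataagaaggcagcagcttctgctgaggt
Id2: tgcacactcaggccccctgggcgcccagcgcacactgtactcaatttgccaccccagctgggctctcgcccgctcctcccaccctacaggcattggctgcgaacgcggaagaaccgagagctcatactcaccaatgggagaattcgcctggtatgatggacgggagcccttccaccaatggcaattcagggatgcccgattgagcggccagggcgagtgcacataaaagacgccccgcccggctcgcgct
Sgk1: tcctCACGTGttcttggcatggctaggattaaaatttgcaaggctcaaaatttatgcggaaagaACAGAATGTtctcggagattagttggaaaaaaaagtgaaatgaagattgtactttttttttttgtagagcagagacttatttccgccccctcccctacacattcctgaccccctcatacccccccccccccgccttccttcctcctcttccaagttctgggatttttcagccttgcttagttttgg
Cry1: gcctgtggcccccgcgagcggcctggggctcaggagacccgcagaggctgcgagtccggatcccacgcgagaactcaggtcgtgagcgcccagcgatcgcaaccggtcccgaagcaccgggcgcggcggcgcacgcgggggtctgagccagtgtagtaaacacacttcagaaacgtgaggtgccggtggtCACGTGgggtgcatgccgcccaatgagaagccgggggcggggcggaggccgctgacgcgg
The Fabp7 window held 1 ROR half-site, 171 bases before the start, as do 14.02% of the 32851 promoters of that length. The Cry1 window held an E-box 60 bases before the start, a motif found in 6.021% of promoters. Sgk1 has 6 annotated starts, of which 3 windows held no match and 2 held a glucocorticoid core, a motif found in 5.835% of promoters. The window printed was picked for holding both that core (186 bases before the start) and an E-box (246 bases before it), so the share of promoters is no measure of how rare it is for a gene with several starts. The Id2 window held none of the 3. These matches are descriptions of the letters, and no binding was measured.

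Fabp7, the brain fatty acid-binding protein of astrocytes and neural progenitors, had the largest difference of any gene in the comparison. Its ZT4 arrays read 8.81, 8.83, 8.79 and 8.91 and its ZT16 arrays 7.74, 7.30, 7.95 and 7.93. Every ZT4 array was thus above every ZT16 array, and the ZT4 arrays lay within 0.13 log2 units of each other. The means were 8.83 ± 0.06 (SD, n = 4) and 7.73 ± 0.30, a difference of 1.10 log2 units (SE 0.19), or 2.15-fold, with an adjusted p of 0.118 in limma. The call depended on how the spread was estimated: fitted on the 8 arrays alone the same difference had an adjusted p of 0.00529, and without ZT0 replicate 4, where Fabp7 read 7.64 against 8.66 to 9.0 on the other ZT0 arrays, it had 2.57e-05. A further quantile normalization gave 1.07 log2 units with an adjusted p of 0.0406, and leaving out 1 of the 8 arrays at a time gave 0.96 to 1.18, with no call.

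The other genes of the astrocyte list lay close to 0, while Etnppl, enriched in astrocytes but not listed, was lower at ZT4 (-0.37). Of 14 measured members of the astrocyte list, 9 were higher and 5 lower at ZT4, with a median difference of 0.02, and Fabp7 was the 1 member with an unadjusted p under 0.05. Gja1, the astrocyte gap junction protein, differed by 0.08 and Slc1a3, a glutamate transporter, by -0.04. The summed level of the list was 12.87 to 12.98 on the ZT4 arrays and 12.85 to 12.91 on the ZT16 arrays, so the ranges overlapped.

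Id2, an inhibitor of bHLH transcription factors, came next. Its ZT4 arrays read 8.52, 8.59, 8.41 and 8.33 and its ZT16 arrays 7.84, 8.02, 7.99 and 7.84. The lowest ZT4 array exceeded the highest ZT16 array by 0.31 log2 units. The means of 8.46 ± 0.11 and 7.92 ± 0.10 differed by 0.54 log2 units (SE 0.10, 1.45-fold, adjusted p = 0.168). Without ZT0 replicate 4 the adjusted p was 0.0136, and with the 8 arrays alone it missed the threshold. Among the 9 Id genes and targets of Notch and BMP signalling, 7 were higher at ZT4, yet Id2 alone had an unadjusted p under 0.05, and its relative Id1 differed by -0.05.

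The other 8 leading genes higher at ZT4 differed by 1.17-fold to 1.42-fold, with adjusted p from 0.608 to 0.857. Olig1, a bHLH factor of the oligodendrocyte lineage, read 8.34, 8.26, 8.17 and 8.32 at ZT4 and 7.86, 7.86, 8.13 and 8.12 at ZT16, a difference of 0.28 (SE 0.08). The gap between the groups was narrow, as ZT4 replicate 3 and ZT16 replicate 3 lay 0.04 apart. Trappc4, a subunit of the TRAPP vesicle-tethering complex, averaged 7.96 ± 0.03 against 7.72 ± 0.09. Rhoq, a small GTPase linked to insulin-dependent glucose transport, averaged 7.59 ± 0.07 against 7.34 ± 0.09. The linker histone H1f2 averaged 8.27 ± 0.06 against 7.97 ± 0.15. The remaining genes were Olfr316, an olfactory receptor gene (0.50 log2 units), Csnka2ip (0.40), Tmem223 (0.35) and Kctd5 (0.22). Gbp9 and Gbp4, guanylate-binding proteins induced by interferon, lay below the median level, with differences of 0.40 (SE 0.10) and 0.31 (SE 0.09). Gbp9 is named here after its values were seen, and of the 13 interferon-induced genes listed Gbp4 alone had an unadjusted p under 0.05.

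Among genes lower at ZT4, the leading pair were Adipor2 and Sgk1. Adipor2, a receptor for the fat-derived hormone adiponectin, read 7.08, 6.91, 7.07 and 7.24 at ZT4 and 7.42, 7.56, 7.68 and 7.42 at ZT16. The means of 7.07 ± 0.13 and 7.52 ± 0.12 differed by -0.44 log2 units (SE 0.11, 1.36-fold lower, adjusted p = 0.608). All 4 ZT4 arrays were below the lowest ZT16 array. Adipor1, the other adiponectin receptor, ran the opposite way at 0.14, and the 16 receptors for metabolic and feeding hormones split into 8 higher and 8 lower with a median of -0.0002.

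Sgk1, a kinase induced by glucocorticoids and by serum, read 6.77, 6.64, 6.61 and 6.93 at ZT4 and 7.22, 6.98, 7.33 and 7.18 at ZT16. ZT4 replicate 4 came within 0.05 of ZT16 replicate 2, and the other ZT4 arrays were at least 0.21 below every ZT16 array. The means of 6.74 ± 0.14 and 7.18 ± 0.15 differed by -0.44 (SE 0.11, adjusted p = 0.608).

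Slc7a5, which carries large neutral amino acids such as the dopamine precursor tyrosine across the blood-brain barrier, read 7.73, 7.96, 7.99 and 8.03 at ZT4 and 8.08, 8.27, 8.19 and 8.38 at ZT16. The groups touched within 0.05 log2 units, and the difference was -0.30 (SE 0.08, adjusted p = 0.635). Slc2a1, the glucose transporter of the barrier, differed by -0.17, and 9 of the 13 amino acid and glucose transporters were lower at ZT4.

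Cry1, a repressor of the clock loop, read 7.29, 7.29, 7.39 and 7.25 at ZT4 and 7.50, 7.69, 7.74 and 7.61 at ZT16, a difference of -0.33 (SE 0.09, adjusted p = 0.635). Its groups were 0.11 apart at the nearest. Cspp1, a centrosome and spindle pole protein, read 9.38 ± 0.09 against 9.68 ± 0.06, a difference of -0.30 (SE 0.08), and its 14 probe sets were all lower at ZT4, by 0.03 to 0.46. Etnppl, an enzyme of phosphoethanolamine breakdown that is enriched in astrocytes, averaged 7.95 ± 0.15 against 8.32 ± 0.14. The other genes were Itpk1, an inositol phosphate kinase (-0.31), Btbd7 (-0.32), Blvrb, a biliverdin reductase (-0.34), and Cenpx, a centromere protein (-0.25). None of the 10 lower genes was called in any of the alternative fits.

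Most clock genes had lower means at ZT4, by small amounts, and none was called. Of 19 measured clock and output genes, 5 were higher and 14 lower at ZT4, with a median difference of -0.10 beside -0.005 over all 19938 genes. Of the 19, 3 had an unadjusted p under 0.05, all lower at ZT4, where 3.27% of all genes did, and 5 were lower with arrays that did not overlap, where 1.89% of all genes were. The 3 were Cry1, Per3 (-0.19, SE 0.07) and Dbp (-0.19, SE 0.08). Arntl read 6.94 ± 0.05 against 6.89 ± 0.07, and Clock differed by 0.03. Nr1d1 read 8.32, 8.34, 8.50 and 8.58 at ZT4 and 8.20, 8.46, 8.25 and 8.48 at ZT16, and the groups overlapped. Per2 was 6.63 ± 0.15 against 6.78 ± 0.03, a difference of -0.14 with overlapping arrays. Besides Cry1, the genes with arrays that did not overlap were Nr1d2, Hlf, Tef and Usp2, lower at ZT4 by 0.10 to 0.16 log2 units, each with an unadjusted p above the threshold. Nfil3, which represses at the D-box that Dbp activates, was the clock gene furthest in the other direction, at 0.22.

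Glucocorticoid-induced genes had lower means at ZT4, though none was called. All 15 measured members were below their ZT16 mean, with a median difference of -0.14, and 6 had an unadjusted p under 0.05, beside 652 of all 19938 genes lower and 355 higher by the same threshold. After quantile normalization the list's median was -0.12 and still 0 members were higher. The 6 were Sgk1, Zbtb16, Dusp1, Ddit4, Pdk4 and Mt2. Zbtb16, a zinc finger repressor induced by the hormone, read 7.15, 7.26, 7.38 and 7.04 at ZT4 and 7.36, 7.46, 7.56 and 7.49 at ZT16, a difference of -0.26 (SE 0.07). Those groups overlapped at 1 array, ZT4 replicate 3. Dusp1, a phosphatase of MAP kinases that neuronal activity also induces, differed by -0.36 (SE 0.11). Mt2, a metallothionein, differed by -0.18 (SE 0.09). Fkbp5 and Tsc22d3, further well-known targets, differed by -0.14 and -0.07 without passing the unadjusted threshold, and Klf9 by -0.16. The list has 1 member in common with the clock list, Per1, at -0.05. Corticosterone was not measured on these arrays.

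Transcripts of energy metabolism and protein synthesis were mostly higher at ZT4, but the shift shrank or turned after quantile normalization. Of 46 nuclear genes of oxidative phosphorylation, 43 were higher, with a median of 0.08, and after quantile normalization 31 were higher with a median of 0.03. Of 34 cytosolic ribosomal protein genes, 30 were higher with a median of 0.08, and after it 17 with a median of 0.002. Glycolysis genes were higher in 12 of 14 and, after it, in 4 of 14, where the median turned from 0.06 to -0.03. The largest glycolysis difference was that of Hk1, brain hexokinase, at 10.73, 10.91, 10.39 and 10.41 at ZT4 against 10.34, 10.33, 10.26 and 9.85 at ZT16, a difference of 0.42 (SE 0.14, adjusted p = 0.918). Another, dimmer probe set of Hk1, with a mean level of 8.02, did not share it, at -0.03 (SE 0.09). The Hk1 difference therefore rests on the brighter probe set, and which probe set reads the Hk1 messenger was not tested. Proteasome subunits turned sign in the same way, from a median of 0.03 to -0.03. The citric acid cycle went from 15 of 16 higher to 9 of 16.

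The cholesterol list kept most of its shift. Of 19 cholesterol synthesis genes, 15 were higher at ZT4 with a median of 0.09, and 15 were higher after quantile normalization with a median of 0.07. Msmo1, a methylsterol oxidase, was the member with an unadjusted p under 0.05, at 8.52 ± 0.12 against 8.28 ± 0.15. Lss, which closes the sterol rings, ran the other way at -0.18. Fatty acid synthesis and elongation had 10 of 14 genes higher both before and after, with medians of 0.07 and 0.03. The myelin and oligodendrocyte list had 11 of 14 higher with a median of 0.10, which was 0.03 after normalization, and held Olig1 and Ugt8a (0.22), an enzyme of myelin galactolipids.

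Stress and activity genes did not share a direction. Hspa1a, the inducible HSP70 chaperone, was lower at ZT4, at 6.95 ± 0.18 against 7.25 ± 0.19 (-0.30, SE 0.10), whereas 11 of the 14 heat shock genes were higher, and 5 of 14 after quantile normalization. Of the cold-inducible pair, Cirbp differed by 0.08 and Rbm3 by -0.13, both within the spread. Among 20 immediate early genes 12 were lower. Nr4a3 (-0.19) was the 1 member with an unadjusted p under 0.05, a threshold that 5.05% of all genes reached. Its mean level of 5.27 lay below the median, and its arrays overlapped. Npas4 (-0.19, SE 0.09, unadjusted p = 0.0509 in limma), at a mean level of 6.10, was the 1 member with arrays that did not overlap. Of all genes, 1.89% were lower at ZT4 in that way. Fos, a general marker of neuronal activity, differed by -0.21 (unadjusted p = 0.0753), and the median of the list was -0.02. Of 18 endoplasmic reticulum chaperones and targets of the unfolded protein response, 11 were lower, with a median of -0.05 that normalization left in place.

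No gene that marks dopamine neurons separated the 2 times. Th read 7.51, 7.61, 7.62 and 8.06 at ZT4 and 7.76, 7.50, 7.92 and 8.0 at ZT16. The groups overlapped throughout, and the difference of -0.10 (SE 0.14, adjusted p = 0.967) was smaller than the SD of either. Slc6a3 was at 8.47 ± 0.35 against 8.47 ± 0.28, and the vesicular transporter Slc18a2 differed by 0.09. Across the 8 genes of synthesis, packaging and reuptake, the 5 of breakdown and the 9 midbrain transcription factors, none had an unadjusted p under 0.05, a threshold reached by 5.05% of all genes, so a count of 0 among so few says little. Among the 9 receptors and signalling genes Drd3 did, at -0.18 (SE 0.08). Drd2, the main autoreceptor, differed by 0.12. None of the 13 opioid and endocannabinoid genes and none of the 15 neuropeptide genes reached it either, where Nts differed by 0.23 and Gal by 0.20, and Slc17a8, a vesicular glutamate transporter, was the 1 transmitter identity gene that did, at 0.14. The summed dopamine neuron markers were 10.71 to 11.03 on the ZT4 arrays and 10.63 to 10.92 on the ZT16 arrays, and the mural cell markers, with Acta2 of smooth muscle at 0.32 (SE 0.16), were 11.02 to 11.11 against 10.84 to 11.06. The GABA neuron markers came closer to parting, at 11.8585 to 11.9193 against 11.7703 to 11.8598. Of 11 endothelial genes, 2 were higher at ZT4 with arrays that did not overlap, where 1.48% of all genes were. They were Pecam1 (0.25, SE 0.10) and Itm2a (0.14, SE 0.08). The summed endothelial markers overlapped, at 10.90 to 10.95 against 10.83 to 10.94. For these cell types the part of tissue makeup in the gene differences was not tested.

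**Figure D2:**
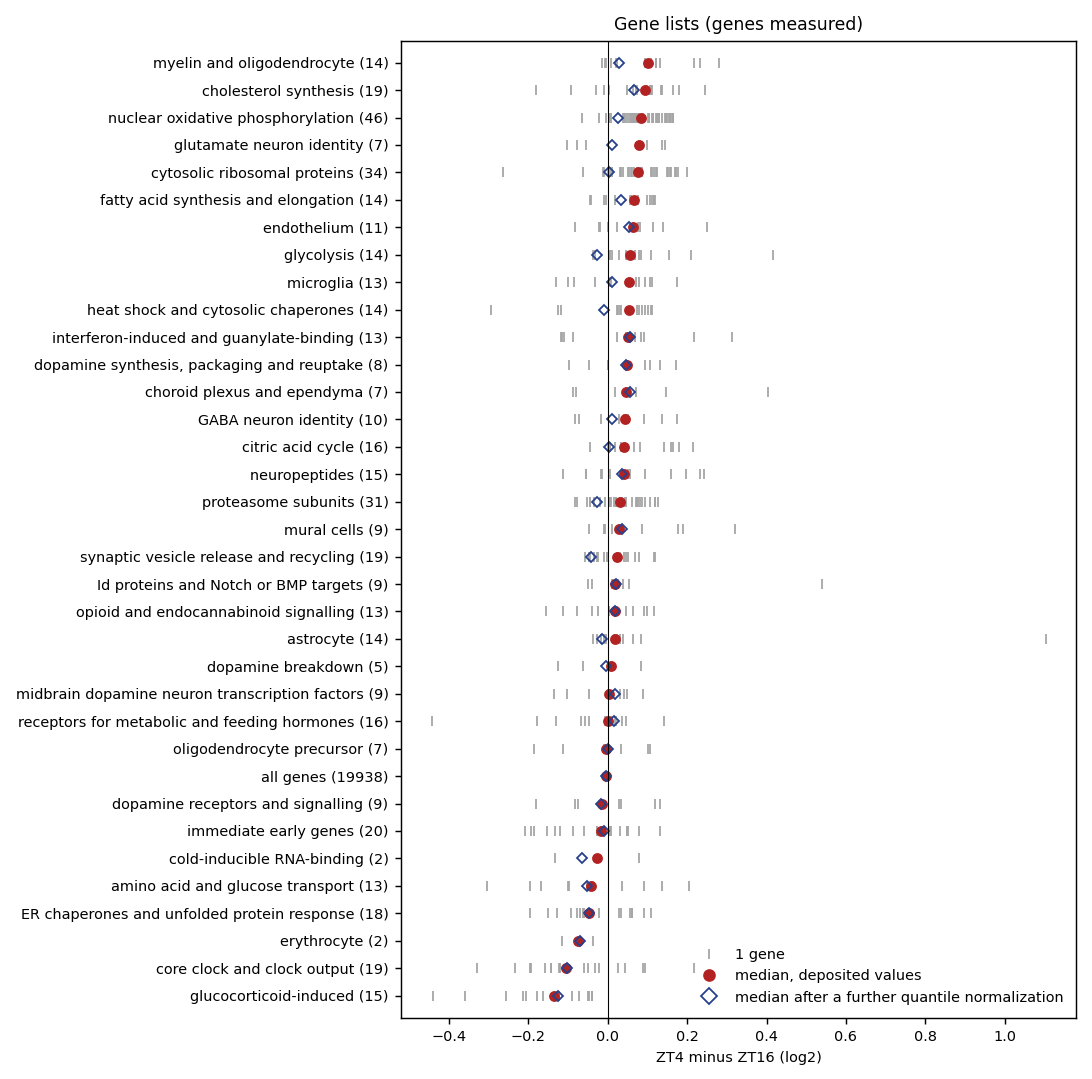
Difference of ZT4 minus ZT16 (log2) for each measured gene (ticks) of the 34 gene lists, with the list's median in the deposited values (red) and after a further quantile normalization (open diamonds); the number of measured genes is in brackets. The glucocorticoid-induced and clock lists have the lowest medians in both, at -0.14 and -0.10 in the deposited values, while the medians of the metabolic and ribosomal lists move towards 0 after normalization.

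The dependence on level ran through the whole table. Divided into 10 equal groups by mean level, the transcripts had median differences from -0.05 in the dimmest group to 0.07 in the brightest. After quantile normalization every group lay between -0.006 and 0.002. That step gives every array the same distribution, so this flattening largely follows from the method. Lists of bright genes are subject to the same step. The ZT4 arrays were more spread out, with an SD over transcripts of 1.39 to 1.44 against 1.36 to 1.40 at ZT16. Of the 498 transcripts higher at ZT4 by unadjusted p, 55.6% were above the median level, and of the 729 lower 25.2%. After quantile normalization the shares were 35.1% of 576 and 37.8% of 658. The split between higher and lower therefore depended on the scaling, from 40.6% higher in the deposited values to 46.7% after normalization.

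**Figure D3:**
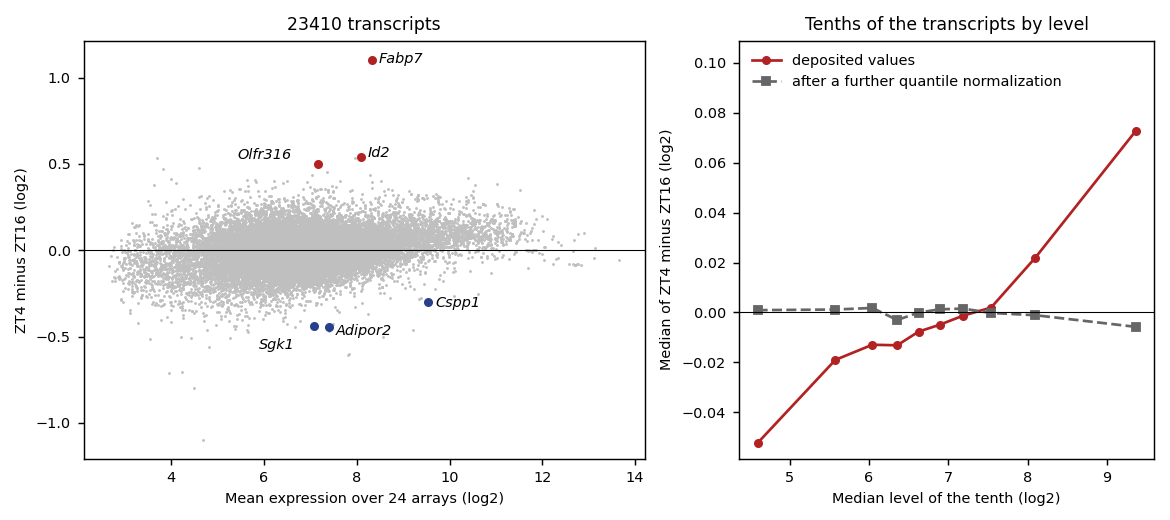
Left, difference of ZT4 minus ZT16 against mean expression over 24 arrays (both log2) for 23410 transcripts, with 6 genes marked. Right, median difference in 10 equal groups of the transcripts by level, which climbs from -0.05 to 0.07 in the deposited values (red) and stays near 0 after a further quantile normalization (grey). That normalization gives all arrays the same distribution, so the grey points lie near 0 largely by construction.

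Many of the smallest p-values belonged to dim transcripts. Of the 20 transcripts of smallest p, 15 lay below the median level, 16 were lower at ZT4 and 19 had arrays that did not overlap. The 2 genes of smallest p after Fabp7 and Id2 that are discussed by name, chosen after their values were seen, were 8430429K09Rik, at 5.50 ± 0.12 against 5.97 ± 0.16 (-0.47, SE 0.10, adjusted p = 0.296), and Trpc6, a cation channel, at 6.21 ± 0.13 against 6.60 ± 0.14 (-0.39, SE 0.08, adjusted p = 0.351). Of 175 transcripts of vomeronasal receptors, 20 were lower and 1 higher by unadjusted p, beside 3.11% and 2.13% of all transcripts, with a median level of 4.53 and a median difference of -0.06 that became -0.009 after normalization.

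The 7 transcripts past 1.5-fold were seen after the fact, and Fabp7 is the 1 among them that was higher at ZT4. Of the 6 lower ones, 4 were below the median level: 3 probe sets of Trdn, a calcium-release protein of muscle, and Snord61, a small nucleolar RNA. The largest, a Trdn probe set with a difference of -1.096 (SE 0.33, adjusted p = 0.741), read 4.42, 4.54, 3.80 and 4.43 at ZT4 and 5.84, 5.0, 4.75 and 5.98 at ZT16. The last 2 share 1 locus, the Snord14c and Snord14d small nucleolar RNAs inside introns of Hspa8. One of them read 7.0, 7.86, 7.27 and 7.75 at ZT4 and 8.27, 8.08, 7.79 and 8.17 at ZT16, with a difference of -0.61 (SE 0.17, adjusted p = 0.662) and an overlap of 1 array from each group. The Hspa8 messenger itself, on its own probe set, differed by 0.10, and of 56 transcripts of small nucleolar RNAs 3 were lower and 0 higher by unadjusted p, near the 3.11% of all transcripts that were lower.

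Over the 6 time points, the genes higher at ZT4 mostly had their extremes at these times. In 8 of the 10 leading genes ZT4 was the highest time, in 8 ZT16 was the lowest, and both held in 7. Without ZT0 replicate 4 these counts were 7, 9 and 6, and Fabp7 was then highest at ZT0, with a mean of 8.88 ± 0.19 over 3 arrays. With all arrays, Fabp7 ran from 8.57 ± 0.64 at ZT0 and 8.83 at ZT4 through 8.55 ± 0.10 at ZT8 and 8.25 ± 0.22 at ZT12 to 7.73 at ZT16 and 8.03 ± 0.21 at ZT20. Id2 peaked at ZT4 and was at its lowest, 7.87 ± 0.18, at ZT12 rather than ZT16, the difference from ZT16 being 0.05. The genes lower at ZT4 were less tied to ZT16. ZT4 was their lowest time in 8 of 10, but ZT16 was the highest in 3 and ZT12 in 6, and without ZT0 replicate 4 these counts were 7, 3 and 6. Sgk1 was 6.80 ± 0.11 at ZT0, 6.95 ± 0.15 at ZT8, 7.56 ± 0.14 at ZT12 and 7.25 ± 0.27 at ZT20, so its highest level came at lights off. As the 10 genes of each set were chosen on ZT4 and ZT16, the order of those times is partly fixed by the choice.

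**Figure D4:**
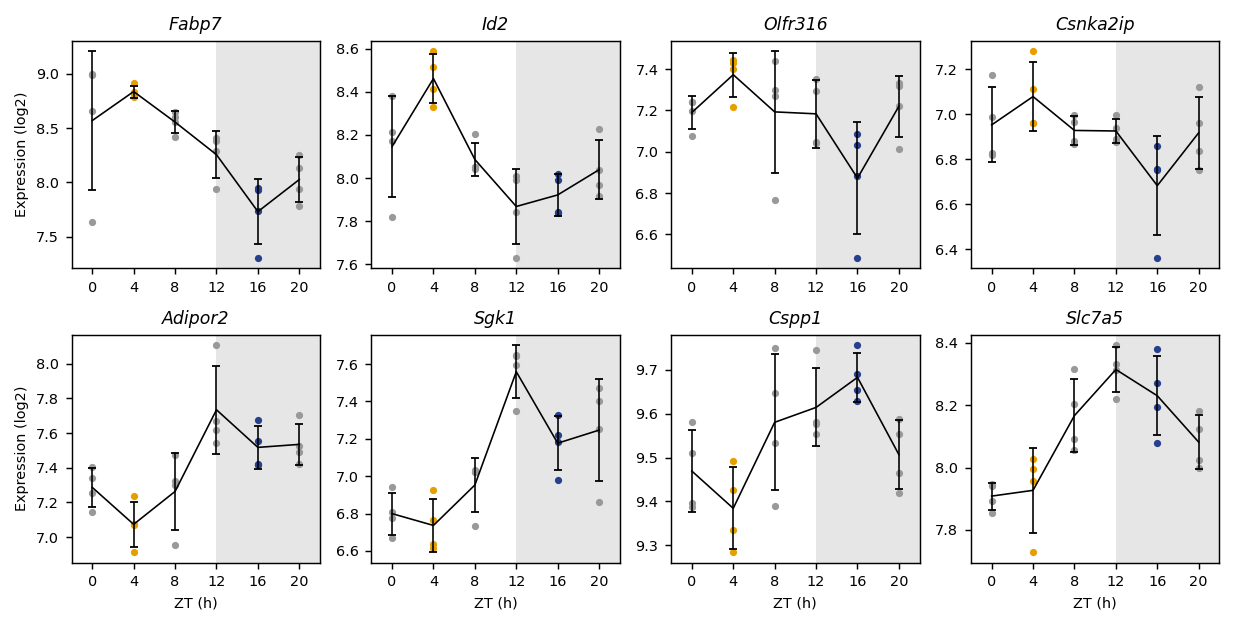
Expression (log2) against ZT in hours for the 4 leading genes higher at ZT4 (top) and the 4 lower (bottom), with 1 point per array (ZT4 orange, ZT16 blue, others grey), lines through the means, bars of 1 SD and the dark phase shaded. Fabp7 goes from 8.83 at ZT4 to 7.73 at ZT16, with 1 low ZT0 array at 7.64, replicate 4, that sets its ZT0 mean below that of ZT4, and Sgk1 is highest at ZT12.

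The day can be cut into 12-h pairs of other mice, which asks whether the ZT4 and ZT16 pattern was particular to those hours. ZT0 against ZT12 had 8 transcripts called (0.0342%) and 1982 transcripts at unadjusted p (8.47%). Without ZT0 replicate 4 it had 1 called and 2235 at unadjusted p (9.55%). ZT8 against ZT20 had 1 called (0.00427%) and 1001 at unadjusted p (4.28%). These pairs share no array with ZT4 and ZT16, only the estimate of the spread. When the differences were themselves compared, 0 transcripts (0%) differed between ZT4 minus ZT16 and ZT0 minus ZT12, with 944 at unadjusted p (4.03%; 0 called and 1412 at unadjusted p without ZT0 replicate 4), and 0 (0%) differed from ZT8 minus ZT20, with 578 (2.47%). No gene is thus called as particular to the early rest and early activity pair.

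For single genes the 3 pairs read as follows. Fabp7 differed by 1.10 here, by 0.31 between ZT0 and ZT12 and by 0.53 between ZT8 and ZT20, and the test of each excess (0.79, SE 0.27, and 0.58, SE 0.27) had an adjusted p above 0.999. Without ZT0 replicate 4 its ZT0 minus ZT12 difference was 0.62 (SE 0.13), and the excess over it 0.48 (SE 0.18, adjusted p = 0.778 in limma). Id2 differed by 0.54, 0.28 and 0.05 in the same order. Without ZT0 replicate 4 the Id2 difference between ZT0 and ZT12 was 0.39, and the excess over it 0.15 (SE 0.13, adjusted p = 0.902 in limma). All 10 leading genes higher at ZT4 had smaller differences in both other pairs, which the choice on ZT4 and ZT16 favours, with the same sign in 7 of 10 and 8 of 10. Sgk1 differed by -0.44 here, by -0.76 between ZT0 and ZT12 and by -0.29 between ZT8 and ZT20. Adipor2 (-0.44, -0.45 and -0.27) and Etnppl (-0.37, -0.38 and -0.42) had like sizes in the 3 pairs, with standard errors of 0.11 and 0.10 for each difference. The 10 leading genes lower at ZT4 had the same sign in 10 of 10 and 7 of 10. In the other pairs 8 and 3 of them reached an unadjusted p under 0.05, where 8.47% and 4.28% of all transcripts did. Of the 10 higher at ZT4, 1 and 3 did, the first count being 2 without ZT0 replicate 4. Nr1d1 had the opposite form: it differed by 0.09 here, by -0.37 between ZT0 and ZT12 and by 0.51 between ZT8 and ZT20. Its highest mean was 8.70 at ZT8, with 8.44 at ZT4 and 8.35 at ZT16. Cirbp had the same form, at 0.08, -0.34 and 0.37. The glucocorticoid list had medians of -0.14, -0.24 and -0.06 in the 3 pairs, the second being -0.19 without ZT0 replicate 4.

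**Figure D5:**
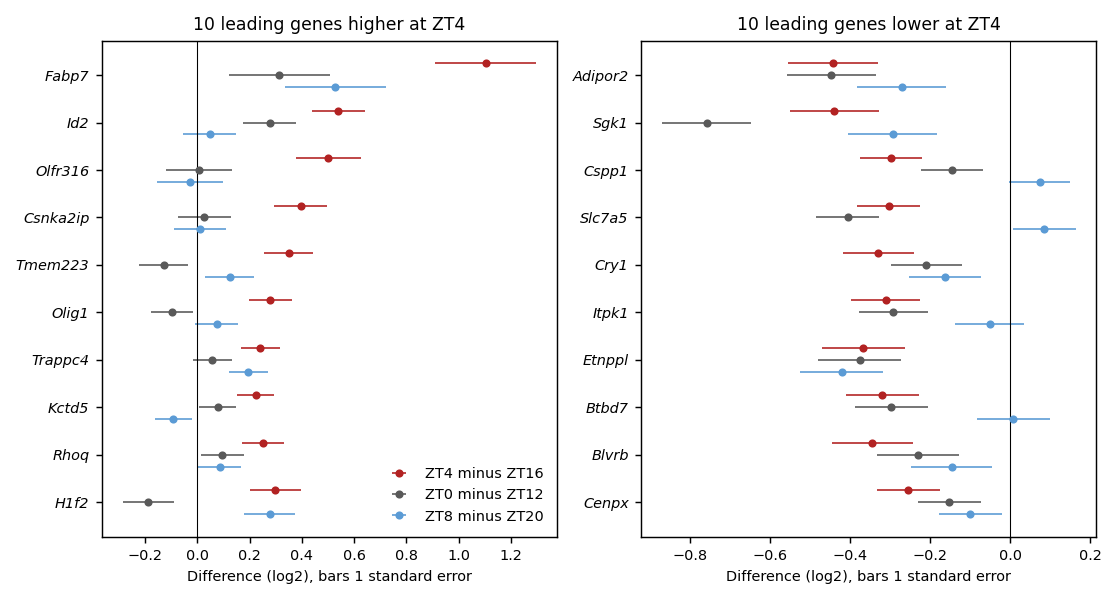
Differences (log2, with bars of 1 standard error) of the 20 leading genes in the 3 pairs of times 12 h apart, ZT4 minus ZT16 in red, ZT0 minus ZT12 in grey and ZT8 minus ZT20 in blue. The genes were chosen on the red points; the Fabp7 grey point is 0.31 with ZT0 replicate 4 and 0.62 without it, Sgk1 has its largest difference between ZT0 and ZT12, at -0.76, and no difference between pairs passed the test.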

How the data were processed

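The 24 samples were total RNA of VTA punches, 1 array per mouse, labelled with biotin and hybridised to Affymetrix Mouse Gene 1.0 ST arrays. The authors deposited 1 table of log2 expression values; per the labels' processing notes it was made by RMA in R 2.13.1, which corrects background, normalizes between arrays and sums probes. Scanner files were not used here. The labels place the samples at 4-h intervals while the methods state 6-h intervals; the labels were followed, and the disagreement could not be settled here. Of 35556 probe sets, 23410 had a gene in the platform annotation (21789 of them 1 gene, 1621 several), and 21698 were matched to the RefSeq gene table for current symbols. Where a gene had several probe sets, the one with the highest mean over 24 arrays stood for it (19938 genes). limma 3.58.1 (R 4.3.3) was fitted with the 6 times as groups and no covariate, contrast ZT4 minus ZT16, with Benjamini-Hochberg adjustment over 23410 transcripts and a threshold of 0.05; 2 further contrasts took the differences between pairs. The fit was tested on simulated data. Named genes were those called, or otherwise the 10 of smallest p in each direction that had 1 symbol, a mean above the median and arrays that did not overlap; the 3 members of smallest p of each of the 34 gene lists; and Th, Arntl, Per2, Nr1d1 and Dbp. The members and lists were chosen with earlier results of these data known. The labels do not name separate cohorts or scan batches, so no batch could be fitted, and 4 arrays per time limit the precision. The values without ZT0 replicate 4 for ZT0 means and ZT0 minus ZT12 differences were added after seeing the data.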

Additional observations from a re-analysis of the deposited data

Results flagged for a closer look

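Of 50 groups of 4 arrays checked, 1 held an array far from the others by Dixon's criterion, and chance alone marks about 1 group in 20. It was Trappc4 at ZT16, where replicate 2 read 7.85 and the other arrays lay from 7.67 to 7.68. The array remained below all 4 ZT4 arrays, which read 7.92 to 8.0.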

How the results depend on the processing

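The 18 alternatives were other scalings, filters, error models and subsets of arrays. No gene was called higher at ZT4 in the main test; 1 was called (Fabp7) with the 8 arrays alone, and 2 (Fabp7 and Id2) with the replicate number as a block, after quantile normalization, with array weights and without ZT0 replicate 4. Leaving out 1 of the 8 arrays at a time gave 0 called in each direction, and 0 were called lower under any alternative. Residual correlations of same-numbered ZT4 and ZT16 arrays were -0.018, 0.113, -0.050 and 0.165. Over the 6 times the 60 same-numbered pairs ran from -0.30 to 0.58, with a median of 0.03 and 14 pairs above 0.1. Each mouse gave 1 time point, and whether arrays of the same number shared a batch was not tested. With the replicate block 1301 transcripts had an unadjusted p under 0.05.

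The unadjusted count of transcripts higher at ZT4, 498, was 305 above the median level, 861 over all probe sets, 796 with array weights, 811 without ZT0 replicate 4 and 380 to 657 with 1 array left out. The count lower, 729, was 198 above the median level, 1248 over all probe sets and 451 to 895 with 1 array left out, with 451 without ZT4 replicate 2 and 463 without ZT16 replicate 4. For the difference from ZT0 minus ZT12 the 944 became 444 above the median level, 1459 over all probe sets, 1357 with array weights, 1412 without ZT0 replicate 4, which enters it directly, and 820 to 1006 with 1 of the 8 arrays left out; for ZT8 minus ZT20 the 578 became 196, 1048 and 540 to 773, 1029 with array weights and 824 without ZT0 replicate 4. The filters test other numbers of transcripts; the other causes were not tested. Of the values for single genes, 7 small ones changed sign: Aldh1a1 (-0.0048) and Syt1 (-0.0045) after quantile normalization, and with 1 array left out Alas2 (-0.12 to 0.015), Aldh2 (-0.15 to 0.027), Foxa1 (-0.021 to 0.20), Id1 (-0.090 to 0.015) and Smad7 (-0.0027 to 0.082).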
